A study of Gallus gallus with 4 samples.

Results

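The muscle genes *MYOCD*, *MYOG*, *MYBPH* and *MYOM3* were examined for trimethylation of lysine 9 of histone H3 (H3K9me3) in chicken cells in culture. They were taken by symbol from a table of gene loci and are 4 of the 1999 loci used. These 1999 were the first of a longer list and not a random sample of genes. Shares of all loci refer to them. The 4 genes were selected on measured values, namely the coverage of their loci by H3K9me3 domains in the same domain lists that are described here, so their coverage is given as a description with no test. Coverage is the percentage of the bases of a locus that lie in domains. Bases are named marked when they lie in a domain and unmarked when they do not. The study described H3K9me3 at a medium level along the genome, so unmarked does not mean that the mark was absent.

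Chromatin came from cultured chicken primordial germ cells (cPGCs), the precursors of eggs and sperm, and from embryonic stem cells of the same species (ESCs), of early embryonic origin. The cells carried no treatment or genetic change named in the labels. Formaldehyde-fixed and sonicated chromatin was precipitated with the antibody ab8898 against H3K9me3, and each cell type had 1 precipitated and 1 input library. There was therefore 1 domain list per cell type, with no replicate error, no p-value and an unknown read depth, and a difference between the lists cannot be told apart from a difference between these libraries. The lists held 23130 domains of median width 9000 bp in cPGCs and 24491 domains of median width 6300 bp in ESCs, and 32.5% of the bases in either list were in both. Domain positions hold no expression values, so the labelled cell types could not be checked against markers in them.

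H3K9me3 is the histone mark of constitutive heterochromatin, where HP1 proteins bind it, and it also covers genes that are kept silent in a lineage that does not use them. Skeletal muscle is specified by myogenic basic helix-loop-helix factors and cardiac and smooth muscle by serum response factor and its coactivators. These regulators switch on the genes of the sarcomere, the contractile unit in which thick myosin filaments slide along thin actin filaments. Neither germ cells nor embryonic stem cells assemble sarcomeres.

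The 4 loci showed 4 arrangements of the mark. *MYOCD* lay wholly in a cPGC domain and had little domain cover in ESCs, and *MYOG* was covered in both cell types. *MYBPH* was covered on unequal lengths, and *MYOM3* was covered in ESCs only. Coverage of 75% or more was found for 2 members in cPGCs (*MYOCD* and *MYOG*), against 10% of all 1999 loci, and for 3 members in ESCs (*MYOG*, *MYBPH* and *MYOM3*), against 8.10% of all loci. Since the members were chosen for these values, nothing is read from the excess. Any overlap with a domain was present for 3 of 4 members in cPGCs (28.9% of all loci) and for 4 of 4 in ESCs (37.8% of all loci).

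**Figure D1:**
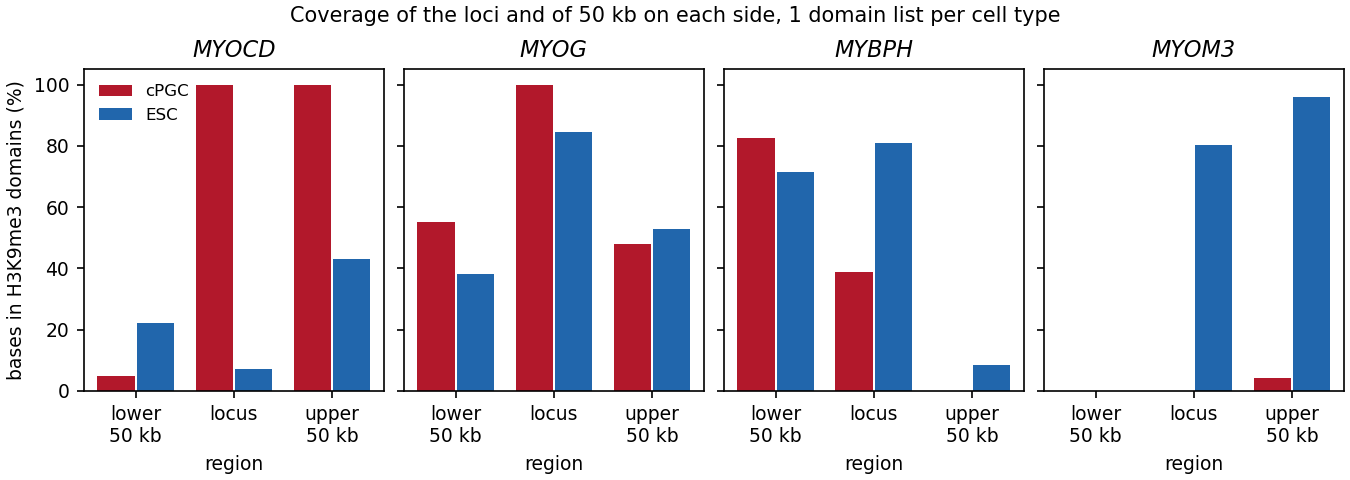
Percentage of bases in H3K9me3 domains (vertical axis) for each gene locus and for the 50 kb on its side of lower and of higher coordinate, in cPGCs (red) and ESCs (blue). Each bar is 1 domain list, so there are no error bars. Cover in cPGCs fills the *MYOCD* and *MYOG* loci and is missing from *MYOM3*, whose upper side is 95.8% covered in ESCs.

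*MYOCD* encodes myocardin, a coactivator of serum response factor that drives smooth and cardiac muscle genes. Its locus (ENSGALG00000001021, galGal5 chromosome 18, 832279 to 865563, 33285 bp) was 100% covered in cPGCs and 7.21% covered in ESCs. It was the only member with 75% or more in cPGCs and 10% or less in ESCs, a class that held 1.85% of all loci. The ESC cover came from 1 domain of 2400 bp (846001 to 848400) in the middle of the locus, between 13722 bp from its lower and 17163 bp from its upper end. The first and the last 1 kb of the locus lay outside ESC domains and inside the cPGC domain.

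A single cPGC domain carried the cover of *MYOCD*. It ran from 829801 to 996600, a width of 166800 bp, and 19 of the 23130 cPGC domains (0.082%) were at least as wide, 2 of them on chromosome 18. The locus took up 20.0% of the domain and lay close to its lower edge, which was 2478 bp below the locus, whereas the other edge was 131037 bp above it. ESC domains took up 29.3% of the same stretch, as 6 separate pieces of 1500 to 17100 bp. The widest of them (979801 to 996900) ended 1 caller window of 300 bp past the end of the cPGC domain, so the upper edges of the 2 lists nearly coincided while the lower edges did not. The marked bases did not stop there. The next cPGC domain (1001701 to 1049100) began after a gap of 5100 bp, and the next ESC domain spanned 1003801 to 1027200. In the scheme that divides a domain into a core shared by both cell types and a cell-specific extension, the shared core of this domain was thus in pieces and the cPGC-only bases included 30885 of the 33285 bp of the gene.

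The flanks of *MYOCD* differed. The 50 kb above the locus were 100% covered in cPGCs and 43.2% in ESCs. The 50 kb below were 4.96% covered in cPGCs and 22.2% in ESCs, through 2 ESC domains (797101 to 807000 and 827101 to 828300) that no cPGC domain touched. Within 25 kb below the locus the order of the cell types was the opposite, with 9.91% in cPGCs and 4.80% in ESCs. The cPGC domain was preceded by a stretch of 124200 bp with no cPGC domain (705601 to 829800), of which ESC domains covered 8.94%, and 4.71% of the gaps between cPGC domains were at least as long. Over the locus and both sides, 61763 bp were in cPGC domains only, 11100 bp in ESC domains only and 24000 bp in both. The bases in both were 24.8% of those in either list, beside 32.5% over the whole lists. More of the mark around *MYOCD* was thus held by cPGCs alone than by ESCs alone, but this direction was not particular to the locus. Over the whole lists, cPGC domains summed to 319125300 bp and ESC domains to 210057300 bp, with 129699900 bp in common. Bases marked by cPGCs alone thus also outnumbered those marked by ESCs alone there. No other locus of those used lay within 50 kb of *MYOCD*, although genes outside those used were not looked at. In the RefSeq order of the later assembly GRCg7b, *MYOCD* lies between *MAP2K4*, which had no locus among those used, and *ELAC2*, which had one. The gene spans a longer stretch there than the locus used here, so bases counted as its side may belong to it.

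**Figure D2:**
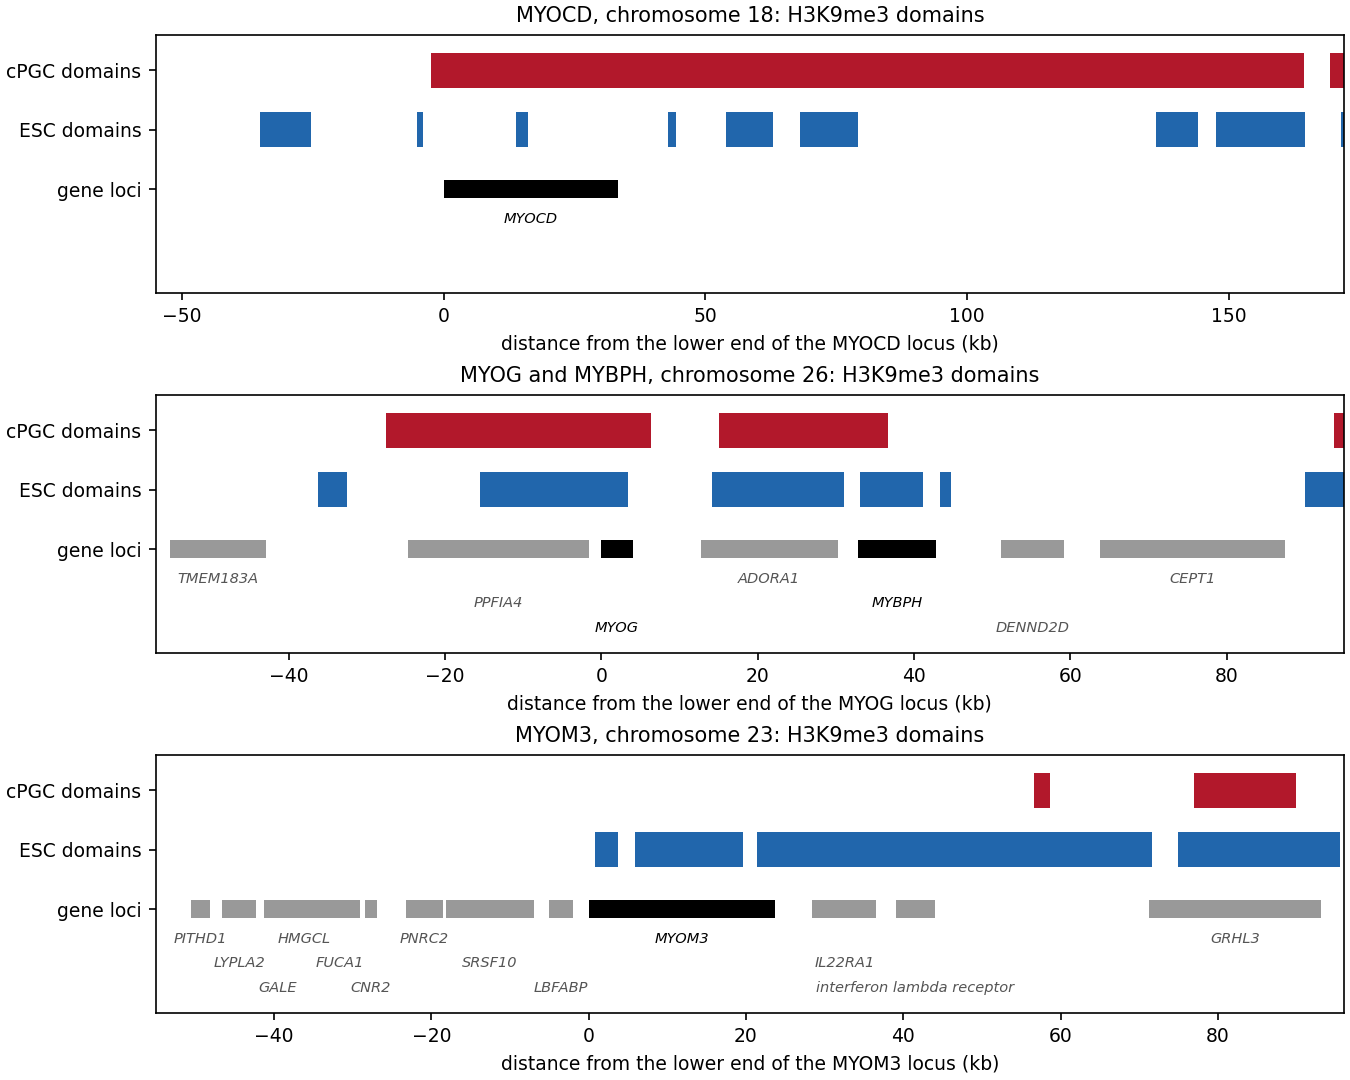
H3K9me3 domains of cPGCs (red) and ESCs (blue) and gene loci (black, the members; grey, loci within 50 kb of a member) along chromosomes 18, 26 and 23, against the distance in kb from the lower end of *MYOCD*, *MYOG* or *MYOM3*. Every domain in the drawn stretches is shown. A single cPGC domain of 166800 bp spans *MYOCD* and overlaps 6 ESC pieces, and the ESC domains of *MYOM3* begin inside the gene and run on past its upper end.

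*MYOG* encodes myogenin, the basic helix-loop-helix factor that commits myoblasts to terminal differentiation. Its locus (ENSGALG00000000172, galGal5 chromosome 26, 968610 to 972624, 4015 bp) was 100% covered in cPGCs and 84.5% in ESCs. It was the only member with 75% or more in both cell types, which 4.75% of all loci reached. The uncovered part in ESCs was 624 bp at the upper end, against the 300 bp windows in which domains were built. The 1 kb of lowest coordinate in the locus was 100% covered in both cell types. The 1 kb of highest coordinate was 100% covered in cPGCs and 37.6% in ESCs.

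The domains over *MYOG* were nested. The cPGC domain (941101 to 975000, 33900 bp) began 27509 bp below the locus and ended 2376 bp above it. The ESC domain (953101 to 972000, 18900 bp) lay wholly inside it, began 15509 bp below the locus and ended within it. The shared core was the whole ESC domain, 55.8% of the cPGC domain, and the extension in cPGCs was 12000 bp on the lower side and 3000 bp on the upper side. Both domains were wider than most of their list, with 7.73% of cPGC domains and 8.61% of ESC domains at least as wide. Below the locus, 55.0% of 50 kb was covered in cPGCs and 38.2% in ESCs. Above it the values were 48.0% and 52.8%, and within 25 kb above they stood in the opposite order, 65.2% and 59.3%. Of the bases marked in either list over the locus and both sides, 58.2% were marked in both.

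*MYBPH* encodes myosin binding protein H, a protein of the thick filament. Its locus (ENSGALG00000000164, galGal5 chromosome 26, 1001411 to 1011420, 10010 bp) was 38.9% covered in cPGCs (3890 bp) and 80.9% in ESCs (8100 bp). The cover of the cell types was divided along the gene. With the locus cut into 5 equal parts from its lower end, parts 1 and 2 were 100% and 94.3% covered in cPGCs, and parts 3 to 5 were at 0. In ESCs parts 1 to 4 were 85.5% to 100% covered, and part 5 was at 19.1%. Both lists marked 3600 bp, ESCs alone 4500 bp and cPGCs alone 290 bp.

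An edge inside the gene set the cPGC value. The cPGC domain at *MYBPH* (983701 to 1005300, 21600 bp) came in from below, ended 6120 bp before the upper end of the locus, and was followed by 57000 bp without a cPGC domain. In ESCs 2 domains overlapped this cPGC domain, at 982801 to 999600 and 1001701 to 1009800, and another lay above the locus at 1011901 to 1013400, with gaps of 2100 bp between neighbours. The one from 1001701 lay entirely inside the locus and 44.4% of it was in the cPGC domain, whereas the one from 1011901 was not marked in cPGCs. The 50 kb below *MYBPH* were 82.6% covered in cPGCs and 71.4% in ESCs, and the 50 kb above were at 0 and 8.44%. The order of the cell types was thus opposite inside the gene and below it, and 70.1% of the bases marked in either list over the locus and both sides were marked in both. *MYBPH* is the symbol in the table used, and the same NCBI gene carries the symbol *MYBPHL* in the later RefSeq annotation.

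*MYOG* and *MYBPH* are neighbours, 28786 bp apart, with *ADORA1*, the adenosine A1 receptor gene, between them, so their surroundings are not independent. A stretch of 71214 bp lay within 50 kb of both. From the start of *MYOG* to the end of *MYBPH* (42811 bp) the covered share was nearly equal, 65.4% in cPGCs and 66.1% in ESCs, and 22891 bp were marked in both. Both lists also had a gap between the genes, from 975001 to 983700 in cPGCs and from 972001, within *MYOG*, to 982800 in ESCs. The lists thus differed here in where the edges fell more than in the length covered. The neighbours below and between followed the same block, with 100% and 60.1% for *PPFIA4*, which encodes a liprin scaffold protein, and 86.4% and 91.6% for *ADORA1*, in cPGCs and ESCs. The loci outside the block, *TMEM183A* below and *DENND2D* and *CEPT1* above, were at 0 in both.

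*MYOM3* encodes myomesin 3, a protein of the M-band that links neighbouring thick filaments. Its locus (ENSGALG00000004155, galGal5 chromosome 23, 5648230 to 5671910, 23681 bp) held no cPGC domain and was 80.3% covered in ESCs (19010 bp). It was the only member with 75% or more in ESCs and 10% or less in cPGCs, a class that held 2.0% of all loci. The nearest cPGC domain below was 219129 bp away and the nearest above was 32890 bp away. *MYOM3* lay in the longest stretch of chromosome 23 without a cPGC domain between 2 such domains, 275700 bp (5429101 to 5704800), and 1.02% of all gaps between cPGC domains were at least as long. ESC domains covered 24.4% of that stretch.

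In ESCs, 3 domains lay on *MYOM3*, separated by gaps of 2100 and 1800 bp. They spanned 5649001 to 5652000, 5654101 to 5667900 and 5669701 to 5719800. The first began 771 bp inside the lower end of the locus, and below it there was no ESC domain for 127200 bp. The third, at 50100 bp, was the widest ESC domain of chromosome 23, ended 47890 bp above the locus, and 0.502% of ESC domains were at least as wide. Of this domain, 4.19% was marked in cPGCs. The lower 50 kb were at 0 in both cell types. The upper 50 kb were 95.8% covered in ESCs and 4.20% in cPGCs, the latter through 1 domain of 2100 bp. Of the bases marked in either list around *MYOM3*, 3.14% were marked in both.

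The 12 loci within 50 kb of *MYOM3* divided, in their galGal5 positions, at the lower end of the gene. The 9 below it, among them *SRSF10* (a splicing factor), *PNRC2*, *FUCA1* (a lysosomal fucosidase) and *LBFABP* (a fatty acid binding protein), were at 0 in both cell types. The 3 above were marked in ESCs. *IL22RA1*, a subunit of the interleukin 22 receptor, and the adjacent gene ENSGALG00000004231, annotated as an interferon lambda receptor, were at 0 in cPGCs and 100% covered in ESCs. *GRHL3*, a grainyhead family transcription factor of epithelia, was 59.0% covered in cPGCs and 84.9% in ESCs. In the RefSeq order of GRCg7b, *GRHL3* instead lies on the lower side of *MYOM3*, between *SRSF10* and *LBFABP*. The ESC mark of *MYOM3* was thus one end of a block that also held 2 cytokine receptor genes.

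**Figure D3:**
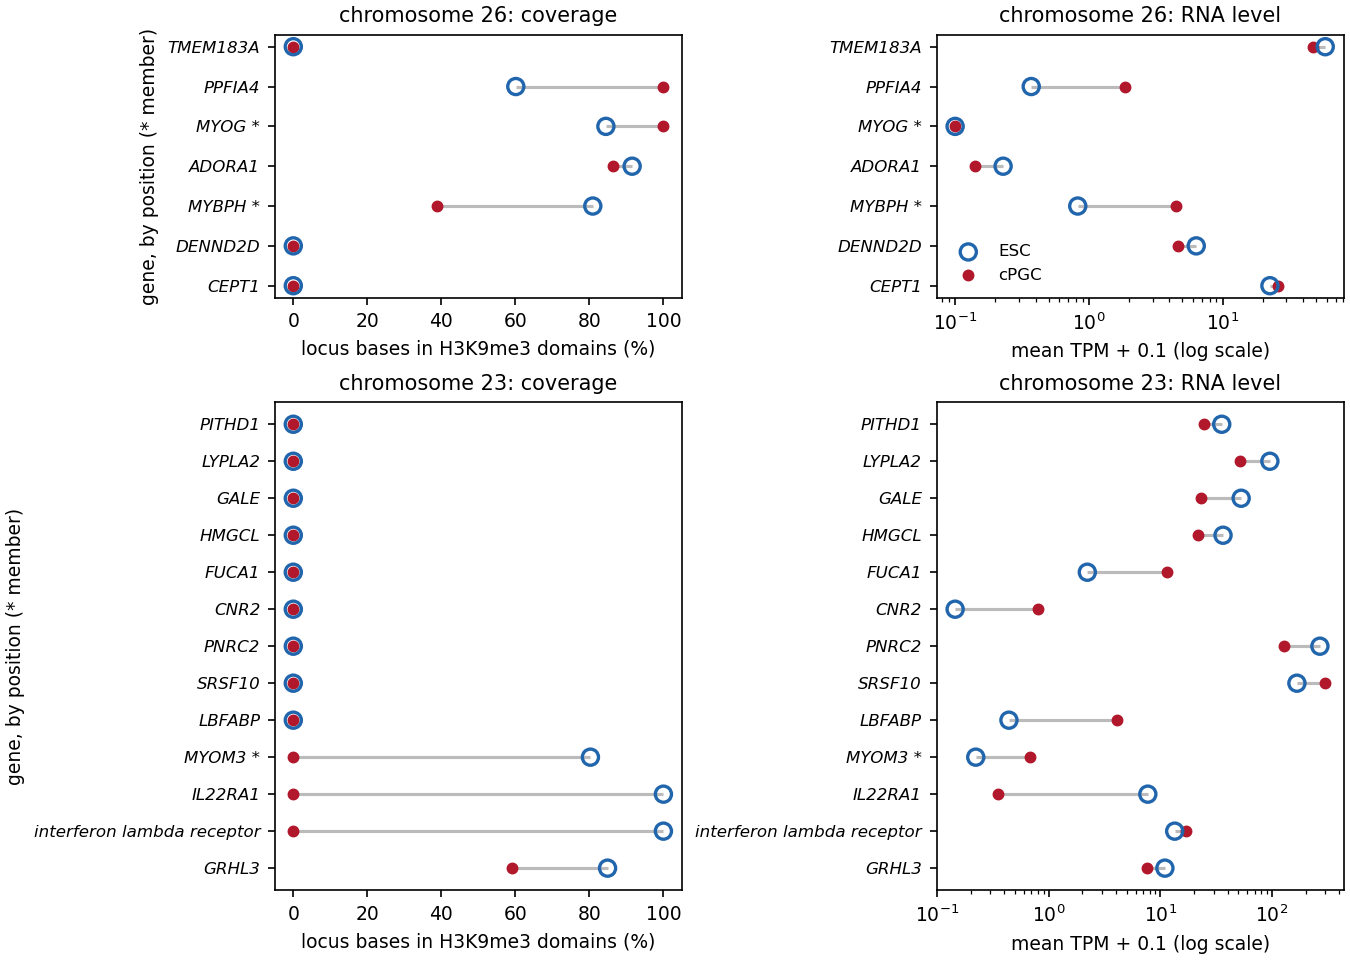
Locus coverage (left) and mean RNA level as TPM + 0.1 on a log scale (right) of *MYOG*, *MYBPH*, *MYOM3* and the loci within 50 kb of them, in order of position, for cPGCs (filled red) and ESCs (open blue). The loci below *MYOM3* are at 0 in both cell types, whereas *MYOM3* and its upper neighbours are marked in ESCs.

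RNA levels were given as TPM (a transcript abundance scaled to gene length and to the library total), as the authors' mean over 3 cPGC and 2 ESC cultures, with no spread. *MYOG* was listed at 0 in both cell types and was among 4 such loci of the 1893 with a TPM. *MYOCD* was at 0.516 TPM in cPGCs and 0.140 in ESCs, and *MYOM3* at 0.581 and 0.122. *MYBPH* had the highest level of the members, 4.35 TPM in cPGCs and 0.726 in ESCs. The median over all these loci was 17.5 TPM in cPGCs and 13.04 in ESCs, so all 4 members were below the median in both cell types.

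The ratio of RNA levels did not follow the order of coverage among the members. On the log2(TPM + 0.1) scale the difference of cPGCs over ESCs was 1.36 for *MYOCD*, 2.43 for *MYBPH* and 1.62 for *MYOM3*, beside a median of 0.38 over all 1893 loci, of which 63.5% were higher in cPGCs. *MYOCD* was thus higher in the cell type in which it was fully covered, and *MYBPH* and *MYOM3* were higher in the cell type with less cover. With a pseudocount of 1 the differences were 0.41, 1.63 and 0.49, since the levels of *MYOCD* and *MYOM3* lay below 1 TPM. The median over all loci was not computed with that pseudocount, so these values have no background. Loci with 75% or more in cPGCs and 10% or less in ESCs had median levels of 0.332 and 0.410 TPM (n = 32), and loci of the reverse class 8.17 and 5.12 TPM (n = 37), in cPGCs and ESCs. *MYOM3* was below the latter medians in both cell types.

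The study described lower RNA levels at genes with greater cover, within each cell type. Loci used here with 75% or more in both cell types had medians of 0.431 TPM in cPGCs and 0.915 in ESCs (n = 92). Over all loci with a TPM the medians were 17.5 and 13.04. Among covered neighbours other than the members, *PPFIA4*, *ADORA1*, *IL22RA1* and *GRHL3* had more RNA in the cell type with more cover. The interferon lambda receptor gene had slightly more in the cell type with less. The share of all loci with either order was not counted, so no trend is read from these few genes. *ADORA1* was at 0.04 TPM in cPGCs and 0.13 in ESCs, both very low, and its coverage differed little (86.4% and 91.6%). *GRHL3* was at 7.44 TPM in cPGCs and 10.9 in ESCs, means without a spread. *PPFIA4*, fully covered in cPGCs, was at 1.76 TPM there and at 0.271 in ESCs. *IL22RA1*, fully covered in ESCs, was at 7.61 TPM there and at 0.253 in cPGCs, and the interferon lambda receptor gene beside it was at 13.3 and 16.8 TPM. *LBFABP*, the unmarked gene next to *MYOM3*, was at 3.97 TPM in cPGCs and 0.340 in ESCs, and *SRSF10* at 299.2 and 166.8.

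The 4 genes were set beside other muscle genes from a list of 108 symbols of regulators and of sarcomere genes, of which 22 had a locus among those used. Without the members, 18 remained. Of these, 6 (33.3%) were overlapped by a cPGC domain and 9 (50%) by an ESC domain, beside 28.9% and 37.8% of all loci, and median coverage was 0 in cPGCs and 0.22% in ESCs, beside 0 and 0 over all loci. Among the 18, 7 were unmarked in both cell types, beside 1101 of all 1999 loci, which is a larger share. Some overlaps were slight. Over all 22 loci, members included, 9 were overlapped in cPGCs and 13 in ESCs, and 8 and 10 had at least 10% of the locus covered. The count at 10% was not made for all loci.

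Among the regulators other than the members, *MRTFB*, a relative of myocardin, was unmarked in both cell types. The genes of the E proteins that pair with myogenin, *TCF12* and *TCF3*, were at 0 in cPGCs and at 0.44% and 16.8% in ESCs. All 3 were expressed, at 9.45, 192.5 and 46.5 TPM in cPGCs and 8.73, 203.1 and 61.1 in ESCs. The arrangement of *MYOCD* recurred in the sarcomere list at *MYL2*, the gene of a regulatory myosin light chain (100% in cPGCs, 0 in ESCs), and at *MYL10* (77.6% and 0). That of *MYOM3* recurred at *UNC45B*, a myosin chaperone (0 and 80.8%; 0.757 TPM in cPGCs and 0.0588 in ESCs). The troponin genes *TNNI1* (100% and 59.7%) and *TNNT2* (44.5% and 14.2%), on the same chromosome as *MYOG*, were marked in both and had more cover in cPGCs. Their RNA levels were lower in cPGCs (0.088 and 0.12 TPM) than in ESCs (1.22 and 4.16 TPM). These troponin loci lie close together (778500 to 784453 and 795620 to 806432), so they are not independent. Other sarcomere genes had more RNA in the cell type with more cover. *LDB3* was 71.5% and 16.8% covered, with 0.201 and 0 TPM, in cPGCs and ESCs. *MYL4* was 0 and 39.9% covered, with 1.91 and 4.04 TPM. *MYL1* (0 and 26.9%) had more cover in ESCs and slightly more RNA in cPGCs, at very low levels (0.148 and 0.125 TPM). *MYLK3* had more RNA in cPGCs (8.97 and 0.851 TPM). Its cover was slight and nearly equal (0.61% and 0.81%), so no order of cover is read there. Unmarked genes included *TPM1*, *TPM4*, *CAPZA1* and *CAPZB*, which encode tropomyosins and actin capping proteins also used outside muscle, with levels from 63.2 to 226.2 TPM in cPGCs. They also included *TNNC1*, the troponin C of slow and cardiac muscle (34.4 TPM in cPGCs and 59.8 in ESCs), and *CSRP3*, which encodes muscle LIM protein (0.657 and 0.274 TPM).

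**Figure D4:**
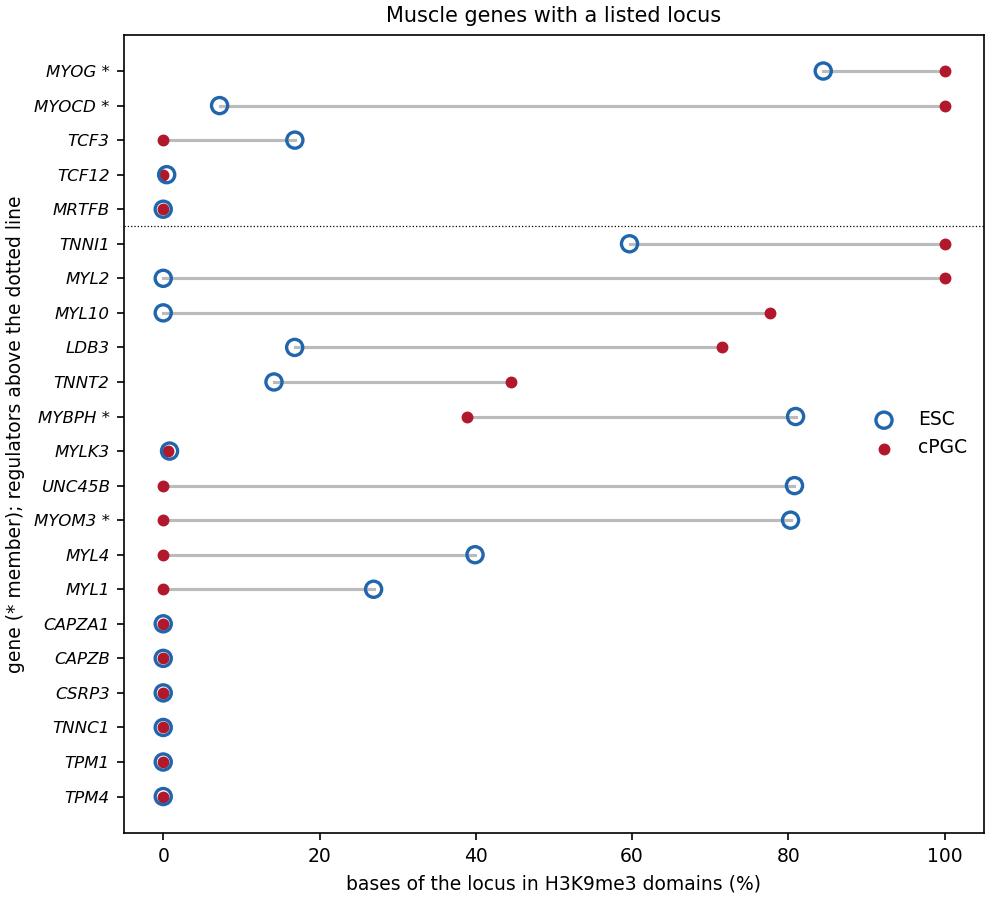
Percentage of each locus in H3K9me3 domains for the 22 muscle genes with a locus among those used, in cPGCs (filled red) and ESCs (open blue), 1 domain list each; asterisks mark the 4 members. *MYL2* and *MYL10* have the cPGC-only cover that *MYOCD* nearly has, and *UNC45B* resembles *MYOM3*. At 0 in both cell types are 7 genes, beside 1101 of all 1999 loci.

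Loci with a symbol that lay outside 50 kb of every member were ranked by their likeness to each member. Loci without a symbol and the members' neighbours were thus not ranked. The measure was the Euclidean distance in percentage points over 6 values, the coverage of the locus and both sides in both cell types. The sides were interchangeable. For *MYOCD* the most alike of the ranked loci were *ARHGEF4* (25.2), *KCND1* (28.5) and *SLC13A2* (29.3). For *MYOG* they were *COL6A3* (22.4), *STRA6* (25.7) and *SH3BP4* (26.3), all 3 with at least 83.4% of the locus covered in both cell types. *MYBPH* had the closest match of the members, *RAB17* (13.3; 48.2% in cPGCs and 84.9% in ESCs), followed by *GALNT17* (36.7) and *ABCA12* (38.6). The nearest loci to *MYOM3* were *GLRA1* (26.3), *SOAT1* (32.8) and *NUDT13* (45.9), with 0 to 12.3% in cPGCs and 53.5% to 65.7% in ESCs. Of these, *GLRA1* was at 2.17 TPM in cPGCs and 0.28 in ESCs, beside 0.581 and 0.122 for *MYOM3*. *SOAT1* was at 88.6 and 7.27 TPM, with 53.5% of its locus covered in ESCs against 80.3% for *MYOM3*. *NUDT13* was at 10.9 and 5.32 TPM, so all of these loci had more RNA in cPGCs, as *MYOM3* had. This was not particular to them. The loci named for *MYOCD* and *MYBPH* also had more RNA in cPGCs, as had 63.5% of all loci with a TPM. Of those named for *MYOG*, *SH3BP4* had more in cPGCs and *COL6A3* and *STRA6* had more in ESCs.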

How the data were processed

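H3K9me3 ChIP-seq of cPGCs and ESCs was used, with 1 precipitated and 1 input library each, grouped by the labels. The authors aligned read pairs to galGal5 and retained uniquely mapped pairs. They searched for broad peaks (MACS2) and for islands of 300 bp windows (SICER). Short gaps within islands were bridged, so a domain can include stretches without enrichment. Highly significant islands and those touched by a broad peak were kept, on autosomes. Their processing notes name bcl2fastq 2.0, FastQC 0.11.3, Bowtie2, SICER and MACS2. The deposited values are start and end positions only, without counts or scores. Starts and ends both count from 0, with the end base included, so 1 was added to each for printing.

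The study describes its loci as starting 500 bp before the transcription start and running to the gene end. Their positions were used as listed and, with the symbols, come from the study's supplementary locus table, of which the first 1999 genes were used. TPM values are the authors' means per cell type from Salmon, in a second supplementary table (106 of these loci had none), and *MYL2* therefore has no TPM. Coverage was recomputed here from the domain positions. Promoters and gene orientation were not analysed here, so sides are named by coordinate. RefSeq of GRCg7b served only for names and gene order.

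Python 3.11.15, numpy 2.4.6, pandas 2.3.3, scipy 1.17.1 and matplotlib 3.10.9 were used, and the interval routines were tested on simulated domains. The 4 members and the muscle lists were chosen with earlier results of these data known. The genes named are the members, loci within 50 kb of them, muscle-list genes with a locus, and the 3 most alike loci of each member. Alternatives merged domains across gaps up to 3000 bp, dropped those narrower than 3000 or 5000 bp, left out 500 bp at each locus end, used sides of 25 or 100 kb, thresholds of 50% or 90%, and a pseudocount of 1. For the muscle list, overlap of at least 10% of the locus was also counted. Coverage was taken as unchanged within its 95% Wilson interval over 300 bp windows, and counts and ratios within 1.5 times. Windows are not independent, so these intervals are narrow.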

Additional observations from a re-analysis of the deposited data

How the results depend on the processing

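Coverage rests on 1 library pair per cell type and on domain positions alone, and TPM on means without a spread, so neither depth nor spread between cultures is known. There were no replicates to pair, since each cell type had 1 precipitated and 1 input library. Of 122 alternative values, 85 were unchanged and 37 moved. Of the 32 for locus coverage, 26 were unchanged, but many of these could not change. In cPGCs, *MYOCD* and *MYOG* lay inside domains of 166800 and 33900 bp, and *MYOM3* was 32890 bp from the nearest domain. Under the alternatives used, neither their cPGC values nor the sign of their difference could change. The interval was also wide for a short locus, 57.8% to 95.7% for *MYOG* in ESCs. The tally is thus no measure of robustness. The difference between cPGCs and ESCs kept its sign at each locus under every alternative, and the sides with the opposite sign at 25 kb were those below *MYOCD* and above *MYOG*. ESC coverage of *MYOCD* was 0 when only domains of at least 3000 or 5000 bp were kept. That of *MYOG* was 95.9% with 500 bp left out at each end. Joining domains gave 100% for *MYBPH* and 96.7% for *MYOM3* in ESCs, and domains of at least 5000 bp gave 67.6% for *MYOM3*. Loci covered at 75% or more in cPGCs and 10% or less in ESCs numbered 37, but 24 with the upper threshold at 90% and 69 at 50%. The reverse class numbered 40, but 86 at 50%. With a pseudocount of 1 the log2 ratio of TPM was 0.41 for *MYOCD*, 1.63 for *MYBPH* and 0.49 for *MYOM3*.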
